A study of Mus musculus with 19 samples.

Results

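Atoh1 (named Math1 in older work) and 8 other transcription factors of the cerebellar granule lineage, Barhl1, Pax6, Zic1, Zic2, Meis1, Nhlh1, Neurod1 and Nfia, were followed across progenitors and Ptch1 tumors of the mouse cerebellum. They are listed by name, in a list made with earlier results of these data known. They are 9 of the 18193 genes that the array annotation names with 1 symbol. All 9 were on the array and among the 12148 genes tested, and they are carried by 23 probe sets. Where a gene had several probe sets, the one brightest on average across the 19 arrays was used and the others served as a check. The arrays, of the Mouse430+2 type, fall into 5 groups. The GNP group is 4 arrays of Math1-positive neuronal progenitors, and the NEP group is 4 arrays of Nestin-expressing progenitors. The NSC group is 3 arrays of CD133-positive, lineage-negative cells that the series calls neural stem cells. The GNP tumor group (4 arrays) was taken from tumors of the Math1-CreERT2/Ptch1C/C genotype and the NEP tumor group (4 arrays) from tumors of the Nestin-CreERT2/Ptch1C/C genotype. CreERT2 is a tamoxifen-activated Cre recombinase, here under Math1 or Nestin control, and Ptch1C is the allele it targets. All mice are labelled C57BL/6, and all cells came straight from the cerebellum. The labels name no culture and no treatment, which does not show that the tumor mice had no tamoxifen. The labels give no age, no pooling and no induction time, and they do not say whether the arrays within a group are different mice, so the p-values measure only the spread between these arrays.

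Granule neurons arise from the rhombic lip, a strip of neuroepithelium at the edge of the hindbrain roof. Atoh1 is a basic helix-loop-helix (bHLH) activator that specifies the granule progenitor and keeps it dividing in the external granule layer, where Sonic hedgehog is the main mitogen. Ptch1 is the Hedgehog receptor that restrains the pathway, and its loss in these cells gives medulloblastoma. Downstream in the lineage, the homeobox protein Barhl1 and the bHLH proteins Nhlh1 and Neurod1 accompany migration and differentiation, and Pax6 is a paired homeobox factor of the whole granule lineage. Zic1 and Zic2 are zinc finger proteins of dorsal neural progenitors, Meis1 is a TALE homeobox protein, and Nfia is a Nuclear Factor I protein that acts in both granule neuron maturation and glial development.

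The values are log2 signals, on which the median of all non-control probe sets lay between 2.44 and 2.57 on each array. The GNP and NEP arrays share a number in their titles and the NSC and tumor arrays another, whose meaning is not stated; each is called a run here. The mean of 27 poly-A spike-in probe sets was 7.97 ± 0.21 (SD, n = 8) in the GNP and NEP run and 6.05 ± 0.25 (n = 11) in the other. Run and group therefore cannot be told apart in any comparison across the runs, while the 2 progenitor groups share a run, as do the 2 tumor groups. NEP arrays 1 and 2 stood apart from arrays 3 and 4 by markers of other cells. The median signal of 13 microglia and macrophage markers was 8.71 and 8.70 on NEP arrays 1 and 2, 3.54 and 2.03 on arrays 3 and 4, and 1.71 to 2.08 on the GNP arrays. All 13 of these markers were at or above the array median on NEP arrays 1 and 2, 9 and 3 of them were on arrays 3 and 4, and 1 to 3 of them on GNP arrays. The 11 pericyte, fibroblast and meningeal markers had medians of 9.11, 9.30, 6.93 and 5.06 on NEP arrays 1 to 4, with all 11 at or above the array median on each, against 2.36 to 3.05 on GNP arrays. Bergmann glia and astrocyte markers were high on all 4 NEP arrays, with medians of 10.93 to 11.32, against 3.47 to 5.08 on GNP arrays. NSC arrays had medians of 7.64 to 7.87 for the stromal list and 8.26 to 8.74 for the glial list, and held Atoh1 and Barhl1 near the GNP level although they are labelled as stem cells. Tumor arrays had microglial medians of 3.56 to 4.48 (NEP tumor) and 4.94 to 5.18 (GNP tumor). Nes, the Nestin gene, stood at 5.87 ± 0.19 in NEP, 3.49 ± 0.35 in GNP and 4.47 ± 0.12 in NSC. Prom1, the CD133 gene, was higher in NEP (8.61 ± 0.30) than in NSC (8.08 ± 0.11), and stood at 7.24 ± 0.17 in GNP. Ptch1 had signals of 11.46 ± 0.090 in NEP tumors and 11.21 ± 0.036 in GNP tumors. Where its probe set lies relative to the targeted part is not known here, so these signals do not check the deletion.

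Promoter windows of 300 bases, 250 before and 50 after a gene's start, were available for 8 of the 9 members (10 windows, RefSeq, build GRCm38.p6). The windows of Atoh1, Barhl1, Nhlh1 and Neurod1 are shown because these 4 genes carried the wide differences described next, and because bHLH proteins such as Atoh1, Nhlh1 and Neurod1 bind E-boxes, CANNTG, which are set in capitals. The windows are read on the gene's strand: Atoh1 at chr6:64728875-64729174 (plus), Barhl1 at chr2:28916619-28916918 (minus), Nhlh1 at chr1:172057547-172057846 (minus) and Neurod1 at chr2:79456587-79456886 (minus).
Atoh1: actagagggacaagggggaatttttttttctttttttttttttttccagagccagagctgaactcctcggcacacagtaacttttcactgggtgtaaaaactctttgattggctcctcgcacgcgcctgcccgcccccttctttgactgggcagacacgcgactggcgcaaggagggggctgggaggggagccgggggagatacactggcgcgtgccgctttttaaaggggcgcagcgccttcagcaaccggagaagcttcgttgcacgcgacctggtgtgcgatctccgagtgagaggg
Barhl1: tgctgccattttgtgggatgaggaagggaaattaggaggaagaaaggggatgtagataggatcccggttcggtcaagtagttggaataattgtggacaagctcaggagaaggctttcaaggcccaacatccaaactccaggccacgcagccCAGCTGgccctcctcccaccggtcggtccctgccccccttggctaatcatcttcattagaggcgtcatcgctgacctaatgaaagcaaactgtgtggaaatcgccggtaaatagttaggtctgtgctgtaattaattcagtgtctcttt
Nhlh1: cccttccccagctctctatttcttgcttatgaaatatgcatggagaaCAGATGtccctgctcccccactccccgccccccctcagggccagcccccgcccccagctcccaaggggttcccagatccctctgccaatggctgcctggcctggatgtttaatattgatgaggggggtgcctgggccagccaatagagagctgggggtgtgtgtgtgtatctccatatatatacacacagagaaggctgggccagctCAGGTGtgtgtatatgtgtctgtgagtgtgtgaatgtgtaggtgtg
Neurod1: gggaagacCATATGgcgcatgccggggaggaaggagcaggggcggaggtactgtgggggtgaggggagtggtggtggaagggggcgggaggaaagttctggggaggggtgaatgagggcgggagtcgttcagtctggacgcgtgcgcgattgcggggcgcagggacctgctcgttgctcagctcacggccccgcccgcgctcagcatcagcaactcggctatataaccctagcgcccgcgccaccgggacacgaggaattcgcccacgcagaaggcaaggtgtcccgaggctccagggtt
No CANNTG lies in the Atoh1 window, whereas 72.3% of the 32851 windows of this length in the table hold one on either strand. The Barhl1 window holds CAGCTG with its first base at -99 from the start, a motif found in 16.3% of windows. A second Barhl1 window, from another start of that gene, holds CAGCTG at -15. The Nhlh1 window holds CAGATG at -203 (17.2% of windows) and a further E-box at 5, and the Neurod1 window holds CATATG at -242 (3.91% of windows). Each of the 3 spelled E-boxes is a case of the general one, so these shares overlap. Over all members, 8 of the 10 windows held at least 1 E-box, and a match is a description of the letters only.

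Atoh1 was low in NEP and high in every other group. The GNP arrays read 8.77, 8.96, 8.80 and 8.89, the NEP arrays 2.85, 2.38, 5.67 and 4.90, and the NSC arrays 8.94, 8.92 and 8.93. GNP tumor arrays read 9.38, 9.45, 9.44 and 9.44, and NEP tumor arrays 10.50, 10.67, 10.31 and 10.41. No NEP array overlapped any array of another group, and array 2 lay under the median of all probe sets while arrays 3 and 4 were the highest of the 4. Atoh1 is the gene behind the label of the GNP group, so its high level there is what the collection set. NEP minus GNP was -4.90 (SE 0.48, limma adjusted p = 1.29e-07), a 29.9-fold ratio of array signal. With part of the NEP arrays near the median of all probe sets, where signal is close to background, this ratio is not a fold of RNA. In these bulk samples, fewer cells of the granule lineage and less Atoh1 RNA per cell cannot be told apart. The NSC arrays, labelled as CD133-positive cells, held Atoh1 at 8.93 ± 0.012, and their difference from GNP was -0.08 in the direction GNP minus NSC (SE 0.52, adjusted p = 0.925). Down the order NEP tumor, GNP tumor, NSC, GNP and NEP, only the last pair of neighbours differed beyond the threshold in the fit of all arrays. Its SE carries the wide spread of NEP. In fits of only the groups compared, NEP and GNP tumors (adjusted p = 5.8e-05) and GNP tumors and NSC (4.03e-05) differed as well. GNP and NSC did not (0.447).

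Barhl1 followed the same order of groups as Atoh1, from NEP tumor down through GNP tumor, NSC and GNP to NEP. Its GNP arrays read 8.58, 8.72, 8.78 and 8.92, its NEP arrays 2.33, 2.31, 5.43 and 4.47, and its NSC arrays 8.83, 9.01 and 8.93. The tumor arrays lay between 9.22 and 9.49, with the NEP and GNP tumors overlapping. NEP arrays were again below all others, and arrays 1 and 2 were under the array median. Barhl1 fell in NEP against GNP, with a difference of -5.12 (SE 0.48, adjusted p = 6.89e-08), and its second probe set gave -5.03. Again only GNP and NEP differed among neighbours in the order in the fit of all arrays. In fits of only the groups compared, GNP tumors also lay above NSC, by 0.40 (SE 0.070, adjusted p = 0.000857). NEP and GNP tumors (0.456) and GNP and NSC (0.174) did not differ there.

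Nhlh1 and Neurod1, the bHLH genes of the differentiating granule cell, were also lowest in NEP. Nhlh1 read 2.87, 3.35, 5.16 and 4.71 on NEP arrays against 7.65, 7.54, 7.60 and 8.16 on GNP arrays, a difference of -3.71 (SE 0.35, adjusted p = 8.74e-08). NSC arrays held an intermediate Nhlh1 level of 6.69, 6.56 and 6.63, above all NEP and below all GNP arrays. Neurod1 read 7.96, 8.22, 10.94 and 10.32 on NEP arrays and 12.26, 12.22, 12.23 and 12.23 on GNP arrays, a difference of -2.88 (SE 0.46, adjusted p = 3.52e-05). Unlike Atoh1, Neurod1 was far above the array median on all 4 NEP arrays, and no NEP array overlapped a GNP array for either gene. The second Neurod1 probe set gave -2.61.

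**Figure D1:**
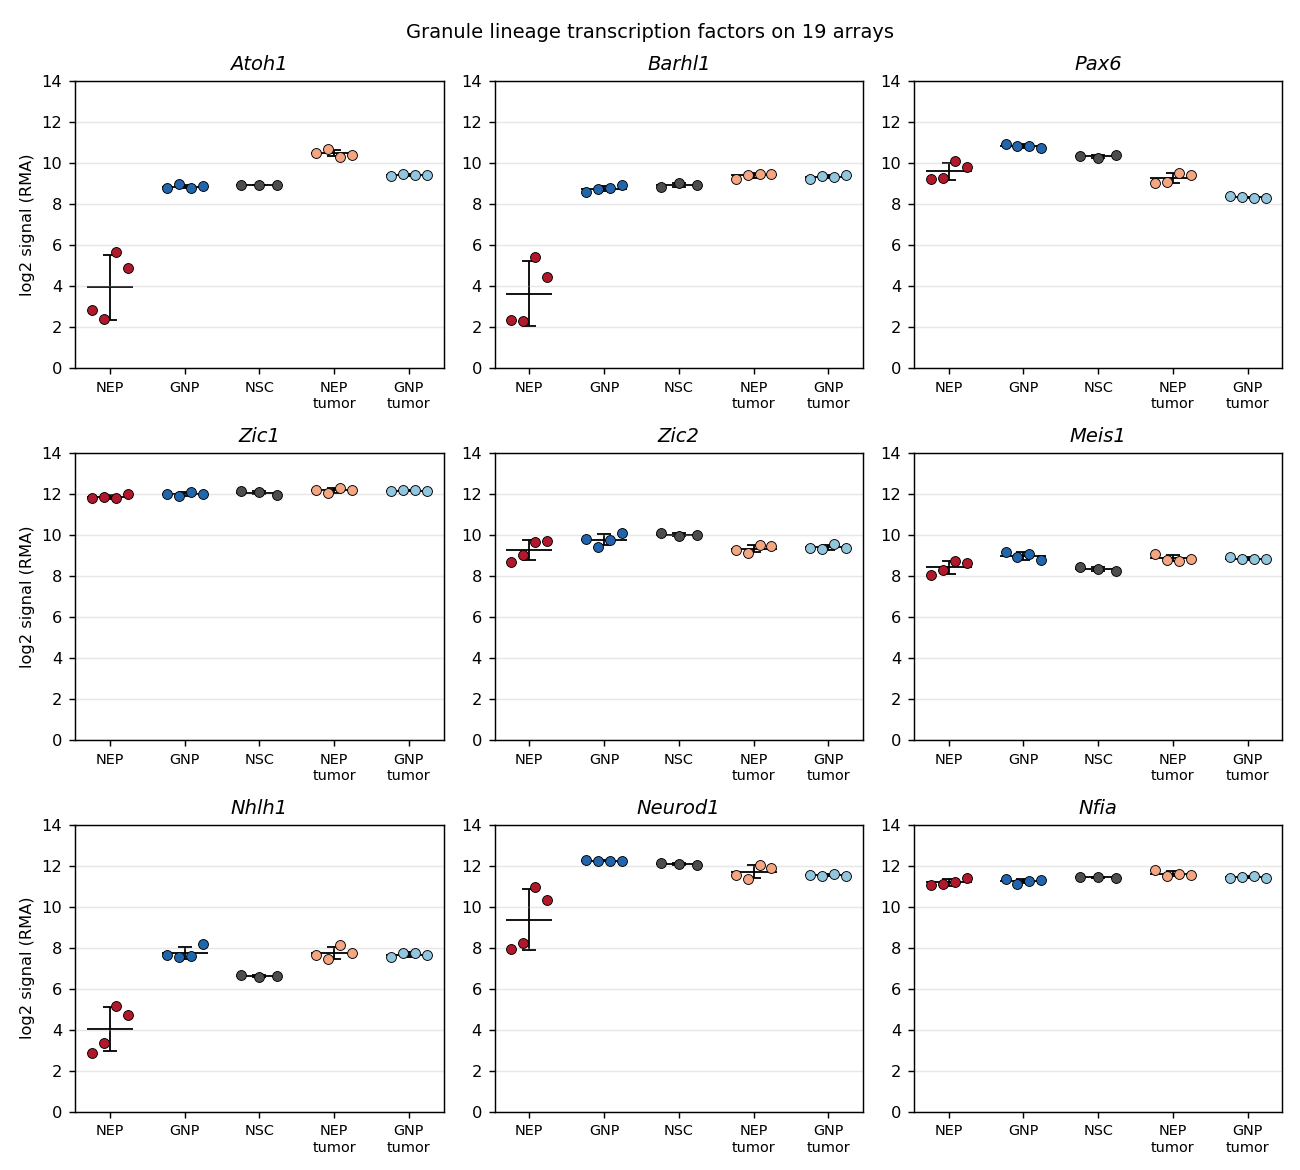
Log2 signal (RMA) of the 9 transcription factors, 1 panel per gene and 1 point per array, with lines for the group mean and error bars for its SD (n = 4, n = 3 for NSC). The 4 NEP arrays of Atoh1, from 2.38 to 5.67, lie below all other arrays, Pax6 is lowest in GNP tumors, and Zic1 and Nfia stay within a narrow band.

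In NEP against GNP, 7 of the 9 factors fell, 0 rose and 2 were not called at an adjusted p under 0.05, where 39.9% of all genes tested were called lower, 29.6% higher and 69.5% in either direction. The median difference was -1.24 over the members and -0.11 over all genes. Arrays of NEP and GNP did not overlap for 6 members, against 57.1% of all genes. Pax6 differed by -1.24 and Meis1 by -0.55 (adjusted p = 2.6e-06 and 0.00105). Zic2 differed by -0.52 (SE 0.18, adjusted p = 0.02) with overlapping arrays. That call was lost without NEP array 1 (-0.32), NEP array 2 (-0.43) or GNP array 4 (-0.42), and in a fit of these 2 groups alone (adjusted p = 0.102), which called 6 members and 60.1% of all genes. Zic1 (-0.14) and Nfia (-0.07) were not called.

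Within NEP, all 9 factors were higher on arrays 3 and 4 than on arrays 1 and 2 by their means. The gap was 2.67 for Atoh1, 2.63 for Barhl1, 2.54 for Neurod1 and 1.82 for Nhlh1, then 0.82 for Zic2, 0.69 for Pax6, 0.51 for Meis1, 0.24 for Nfia and 0.08 for Zic1. Arrays 1 and 2 are those with the high microglial and stromal markers. With NEP arrays 3 and 4 only, the differences from GNP were -3.57 for Atoh1, -3.80 for Barhl1, -2.80 for Nhlh1 and -1.61 for Neurod1, and 6 of the 9 factors were called. With arrays 1 and 2 only 7 were called. The share of all genes called in these fits is not given here, and in the fit of all arrays it was 69.5%. Atoh1 and Barhl1 on arrays 1 and 2 lay at 2.31 to 2.85, near or under the array median, so the size of their difference there has only a lower limit. The split of NEP arrays was made after seeing the data, and glial markers were high on both pairs.

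NEP was also lower than NSC in most of the factors, in a comparison across the runs. Of the 9 factors 8 fell and 0 rose, where 27.6% of all genes were called lower, 30.9% higher and 58.4% in either direction. Arrays did not overlap for 6 members, against 56.0% of all genes. Atoh1 differed by -4.98, Barhl1 by -5.29, Neurod1 by -2.71, Nhlh1 by -2.60, Zic2 by -0.76 and Pax6 by -0.75. Zic1 (-0.21) and Nfia (-0.24) were called with overlapping arrays, and both calls were lost in the fit of these groups alone (adjusted p = 0.0994 and 0.0992), which called 6 members and 47.3% of all genes. Both were also lost without NSC array 1 or 2 or NEP array 1, and with NEP arrays 3 and 4 only, where Zic2 was lost as well (-0.35). Meis1 was not called. In GNP against NSC, 3 of 9 rose, where 23.2% of all genes were called higher, 13.1% lower and 36.3% in either direction. Nhlh1 was higher in GNP by 1.11, Meis1 by 0.64 and Pax6 by 0.49 (adjusted p = 0.0311, 0.00168 and 0.0316). Arrays did not overlap for these 3, Neurod1 and Nfia, 5 members in all, against 50.9% of all genes. The Nhlh1 and Pax6 calls were lost without any 1 of the 3 NSC arrays, Pax6 also without GNP array 1, 2 or 3 and Nhlh1 without GNP array 4. The fit of GNP and NSC alone called the same 3, where it called 44.8% of all genes. Atoh1, Barhl1, Neurod1, Zic1, Zic2 and Nfia were within 0.25 of GNP on the NSC arrays. The granule neuron differentiation genes outside the members had a median GNP minus NSC of 0.69 against 0.06 for all genes. Of these 18 genes 4 were called higher and 1 lower, where 23.2% and 13.1% of all genes were. The share called higher was thus near that of all genes, and this comparison too lies across the runs.

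Pax6 had an order of groups unlike that of Atoh1. GNP arrays were highest at 10.94, 10.82, 10.84 and 10.72, followed by NSC at 10.37, 10.26 and 10.40 and NEP at 9.24, 9.26, 10.08 and 9.80. NEP tumor arrays read 9.02, 9.06, 9.52 and 9.43, and GNP tumor arrays were lowest at 8.38, 8.34, 8.31 and 8.30. Of the neighbours in this order, only NEP and NEP tumor did not differ beyond the threshold (adjusted p = 0.0656). GNP tumor minus GNP was -2.50 (SE 0.16, adjusted p = 1.03e-09), a 5.64-fold difference in signal, with no overlap. NEP tumors were higher than GNP tumors by 0.92 (SE 0.16, adjusted p = 0.000501), also with no overlap and within 1 run. The next brightest Pax6 probe set showed larger differences, -3.73 and 1.89 for the same comparisons. It turned the direction of NEP tumor minus NEP, from -0.34 to 0.32, with neither called. The 3 other Pax6 probe sets were dim, between 1.23 and 4.12 in group means: 1 was called in both comparisons, 1 in GNP tumor against GNP only (-1.24) and 1 in neither.

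Zic1 varied least of the members and Zic2 somewhat more, with spans of 0.32 and 0.76 between their lowest and highest group means. Zic1 lay between 11.78 and 12.29 on all 19 arrays, with group means from 11.85 ± 0.11 in NEP to 12.17 ± 0.11 in NEP tumors and no neighbours in the order that differed. Its second probe set fell in NEP against GNP (-0.61, adjusted p = 0.000649). Zic2 read 8.68, 9.0, 9.64 and 9.68 in NEP, 9.82, 9.42, 9.75 and 10.07 in GNP, and 10.09, 9.96 and 9.98 in NSC. Tumor arrays of Zic2 lay from 9.14 to 9.54. Zic2 was lower in both tumors than in NSC with no overlap, by differences of -0.68 for NEP tumors and -0.63 for GNP tumors (adjusted p = 0.0109 and 0.0161). The latter call was lost without NSC array 1.

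Meis1 and Nfia gave answers that depended on the probe set. Meis1 read 8.07, 8.27, 8.71 and 8.63 in NEP and 9.17, 8.92, 9.04 and 8.76 in GNP, and NSC was lowest at 8.43, 8.34 and 8.23. Its second probe set, at 5.85 to 7.93 in group means, was highest in NSC and lower in NEP tumors than in GNP tumors (-0.95, adjusted p = 0.0177), where the brighter one gave 0.02. The other Meis1 probe set lay between 1.52 and 1.65 in every group mean and was not tested. Nfia in its brightest probe set lay between 11.04 and 11.79 on all arrays. Of the 5 other Nfia probe sets, 4 fell in NEP against GNP (-0.75, -0.74, -0.53 and -0.36). Of the 5, 3 were higher in NEP tumors than in GNP tumors (1.24, 0.92 and 0.82), where the brightest gave 0.18 (adjusted p = 0.145).

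**Figure D2:**
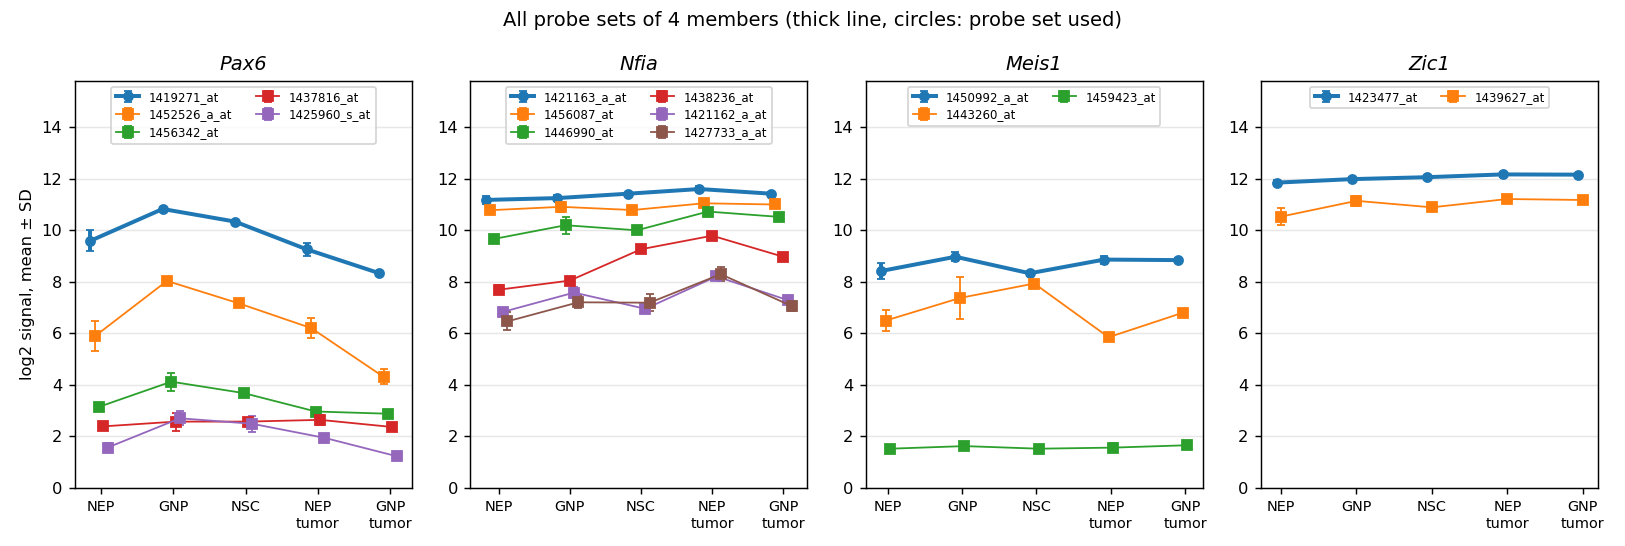
Mean log2 signal ± SD (n = 4, n = 3 for NSC) of every probe set of Pax6, Nfia, Meis1 and Zic1 by group, with the probe set used drawn as a thick line with circles. The 2 brightest Pax6 probe sets are both lowest in GNP tumors, while the Meis1 probe sets differ in their order of groups.

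Between the tumors of the 2 lineages, by the brightest probe sets, Pax6 was the factor called in the fit of all arrays, and Atoh1 had the widest difference. Other probe sets of Pax6 and Nfia, described above, gave wider differences. In NEP tumor against GNP tumor 1 of 9 rose (Pax6), 0 fell and 8 were not called, where 15.5% of all genes were called higher, 8.1% lower and 23.6% in either direction. The median difference was 0.08 over the members and 0.05 over all genes. Arrays did not overlap for 3 members, Atoh1, Pax6 and Nfia, against 32.9% of all genes. Atoh1 was higher in NEP tumors by 1.05 (SE 0.48, adjusted p = 0.13), and every NEP tumor array was above every GNP tumor array. The standard error comes from a variance shared with NEP, whose Atoh1 SD was 1.59 against 0.034 in GNP tumors and 0.15 in NEP tumors. In a fit of the 8 tumor arrays alone the same difference had an SE of 0.084 and an adjusted p of 5.8e-05, and 2 members and 30.8% of all genes were called. Barhl1, Nhlh1, Neurod1, Meis1, Zic1 and Zic2 differed by 0.17 or less in either direction, and a p that misses the threshold does not show that they are equal. Bergmann glia and astrocyte markers had medians of 6.44 to 8.03 on NEP tumor arrays and 7.78 to 7.93 on GNP tumor arrays, and their part, like that of the microglial markers, in the Pax6 and Atoh1 differences was not tested.

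The difference between the lineages was itself different in tumors and in progenitors. The interaction, (NEP tumor minus GNP tumor) minus (NEP minus GNP), was called higher for 6 of the 9 factors and lower for 0, where 36.7% of all genes were called higher, 25.2% lower and 61.9% in either direction. It was 5.95 for Atoh1 (SE 0.68, adjusted p = 1.41e-06), 5.20 for Barhl1, 3.77 for Nhlh1, 3.05 for Neurod1, 2.16 for Pax6 and 0.57 for Meis1. The median was 2.16 over the members and 0.15 over all genes. For Barhl1, Nhlh1, Neurod1 and Meis1 the tumor difference was only 0.08, 0.06, 0.17 and 0.02. Their interaction values are thus mostly NEP minus GNP (-5.12, -3.71, -2.88 and -0.55) with the sign turned. Any shift common to the arrays of a run drops out of this contrast. With NEP arrays 3 and 4 only the values were 4.61, 3.89, 2.86, 1.78 and 1.82 for the first 5, all called, and 0.32 for Meis1 (adjusted p = 0.0756).

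**Figure D3:**
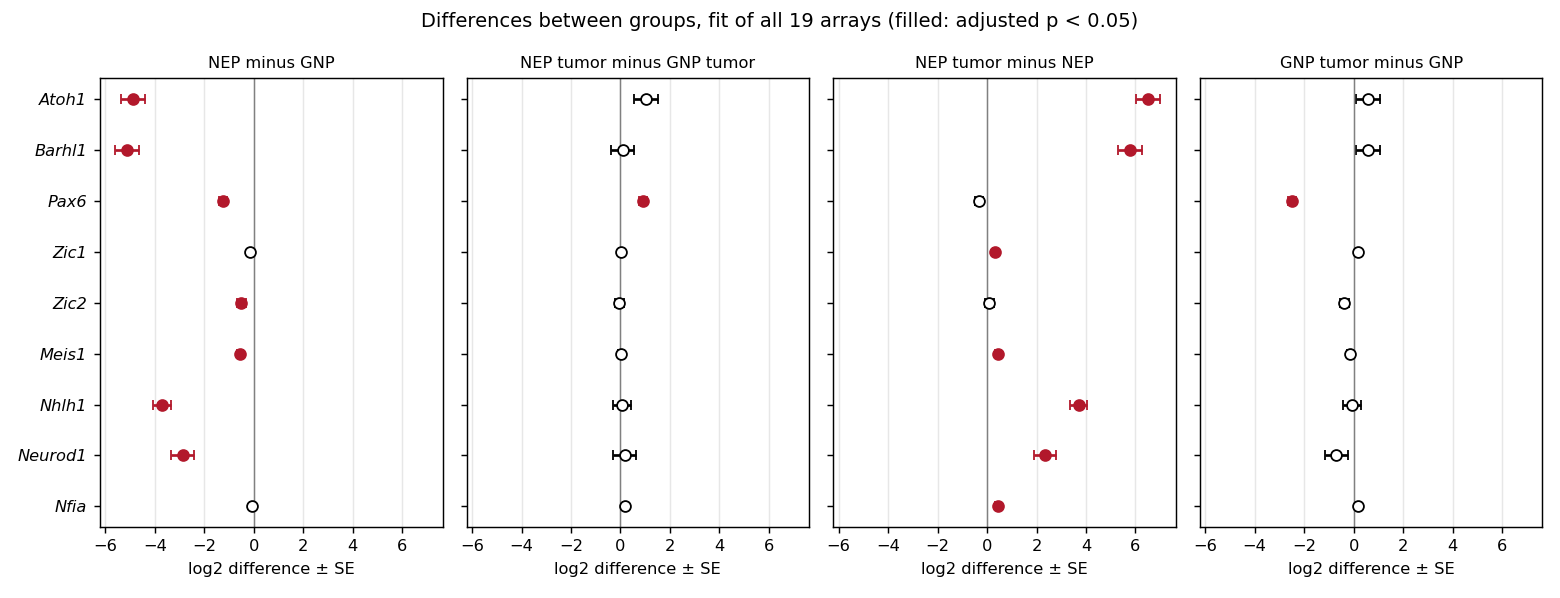
Log2 difference ± SE of the 9 factors in 4 comparisons, from the fit of all 19 arrays, with filled points for an adjusted p under 0.05. In NEP minus GNP 7 points are filled and below 0, in NEP tumor minus NEP 7 are filled and above 0, and in the other panels Pax6 is the filled point.

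Against NEP, NEP tumors held 7 of the 9 factors at a higher level and 0 at a lower one, where 36.2% of all genes were called higher, 32.6% lower and 68.9% in either direction. The median difference was 0.44 over the members and 0.05 over all genes, and arrays did not overlap for 7 members, against 55.1% of all genes. Atoh1 rose by 6.52 (SE 0.48, adjusted p = 3.1e-09), Barhl1 by 5.77, Nhlh1 by 3.70 and Neurod1 by 2.34. Meis1 (0.44), Nfia (0.42) and Zic1 (0.32) were called as well, while Pax6 (-0.34) and Zic2 (0.08) were not. With NEP arrays 3 and 4 only, Meis1 (0.19) was lost and Pax6 (-0.68, adjusted p = 0.000231) was called lower. Pax6 was also called lower without NEP array 1 or 2 or NEP tumor array 3. The groups lie in different runs, and with NEP arrays 3 and 4 only the difference was 5.19 for Atoh1. Against GNP, NEP tumors were higher in Atoh1 by 1.62 (adjusted p = 0.0106), Nfia by 0.35 and Zic1 by 0.18, and lower in Pax6 (-1.57). That is 3 higher, where 20.6% of all genes were, and 1 lower, where 26.8% were, of 47.4% called in either direction. For 5 members no arrays overlapped, against 45.5% of all genes. The Zic1 call was lost without GNP array 1, 2 or 4 or NEP tumor array 1, 3 or 4. In the fit of NEP tumor and GNP alone 6 members and 48.2% of all genes were called: Zic1 was lost (adjusted p = 0.102), Barhl1 (0.65) was called higher, and Zic2 (-0.43) and Neurod1 (-0.54) were called lower.

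GNP tumors against GNP had 1 factor called, Pax6 (lower), where 31.4% of all genes were called lower, 18.5% higher and 49.8% in either direction. The median was -0.07 over the members and -0.08 over all genes, and arrays did not overlap for 6 members, against 54.9% of all genes. In the fit of these 8 arrays alone 6 of 9 were called, where 59.1% of all genes were. The 5 added calls were Atoh1 and Barhl1, each 0.57 higher in the tumors, Zic1 0.17 higher, Zic2 at -0.38 and Neurod1 at -0.70. Neurod1 arrays of GNP tumors (11.56, 11.52, 11.57 and 11.48) lay below all 4 GNP arrays. Against NSC, NEP tumors had 3 factors higher and 2 lower, where 23.9% of all genes were higher, 20.4% lower and 44.3% either, and arrays did not overlap for 7 members (54.3% of all genes). GNP tumors had 2 higher and 2 lower against NSC, where 22.2% were higher, 25.4% lower and 47.6% either, with no overlap for 7 members (65.2%). In the fit of GNP tumor and NSC alone 7 members and 64.8% of all genes were called. The calls it added were Atoh1 (0.50) and Barhl1 (0.40), higher, and Neurod1 (-0.54), lower. In the fit of all arrays Pax6 and Zic2 were the lower ones in both tumors, and Meis1 and Nhlh1 were higher in both. Atoh1 was a further call in NEP tumors there (1.54, adjusted p = 0.0231). The second Meis1 probe set went the other way, with means of 5.85 in NEP tumors, 6.80 in GNP tumors and 7.93 in NSC. The NSC calls of Atoh1 in NEP tumors and of Nhlh1 in both tumors were lost when any 1 NSC array was left out. Nhlh1 was also lost without NEP tumor array 3 in the former, and without GNP tumor array 2, 3 or 4 in the latter. In limma fits of only the groups compared these calls stood. The adjusted p was 5.09e-06 for Atoh1 in NEP tumors, and 0.000413 and 2.46e-06 for Nhlh1 in NEP and GNP tumors. The fit of NEP tumor and NSC alone also called Barhl1 higher (0.48, adjusted p = 0.00274). Against NEP, GNP tumors had 7 factors higher and 1 lower, Pax6 at -1.26, where 32.9% of all genes were higher, 34.9% lower and 67.8% either. For 7 members no GNP tumor array overlapped a NEP array, against 61.0% of all genes. The Nfia call among these (0.24) was lost without NEP array 1 or 2 or GNP tumor array 3.

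Barhl1 had the highest Pearson r to Atoh1 over the 19 arrays of all 12147 other genes tested, 0.9852 against 0.9849 for the next. The next were Rnd3 (0.985), Boc, a Hedgehog co-receptor (0.985), Hsd11b2, an enzyme that inactivates glucocorticoids (0.984), Sema7a, a membrane-anchored semaphorin (0.983), and Cyp11a1, the cholesterol side-chain cleavage enzyme (0.980). The order depended on the measure: Spearman rho was 0.963 for Sema7a, 0.937 for Cyp11a1 and 0.921 for Boc, against 0.919 for Barhl1. Hsd11b2 stood at 3.65 ± 1.75 in NEP, 8.18 ± 0.052 in GNP, 9.54 ± 0.077 in GNP tumors and 10.04 ± 0.23 in NEP tumors. Cyp11a1 stood at 3.57 ± 0.64 in NEP and 9.41 ± 0.15 in NEP tumors. The 4 genes at the other end were Ptprj, a receptor tyrosine phosphatase (-0.983), Dock10 (-0.977), Gpx3, a secreted glutathione peroxidase (-0.977), and Sorcs1 (-0.974). As many as 377 genes had an r over 0.9, and arrays of a group share that group and its run, so the 19 points are not independent. Among the members r to Atoh1 was 0.952 for Nhlh1, 0.875 for Neurod1 and -0.063 for Pax6. On the 15 arrays without NEP it was 0.81 for Barhl1, 0.34 for Nhlh1, -0.63 for Neurod1 and -0.56 for Pax6, while Pax6 and Neurod1 had an r of 0.92 with each other. Taken as deviations from the group means, the same arrays gave -0.0078 for Barhl1, -0.47 for Nhlh1, -0.84 for Neurod1 and -0.77 for Pax6. Pax6 and Neurod1 then had 0.85 with each other. Among these groups NEP tumors had the widest SD, 0.33 for Neurod1 and 0.25 for Pax6, against at most 0.052 and 0.090 in the others. The Neurod1 and Pax6 values thus rest largely on the 4 NEP tumor arrays. There the mean of arrays 3 and 4 minus that of arrays 1 and 2 was 0.54 for Neurod1, 0.43 for Pax6 and -0.23 for Atoh1.

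**Figure D4:**
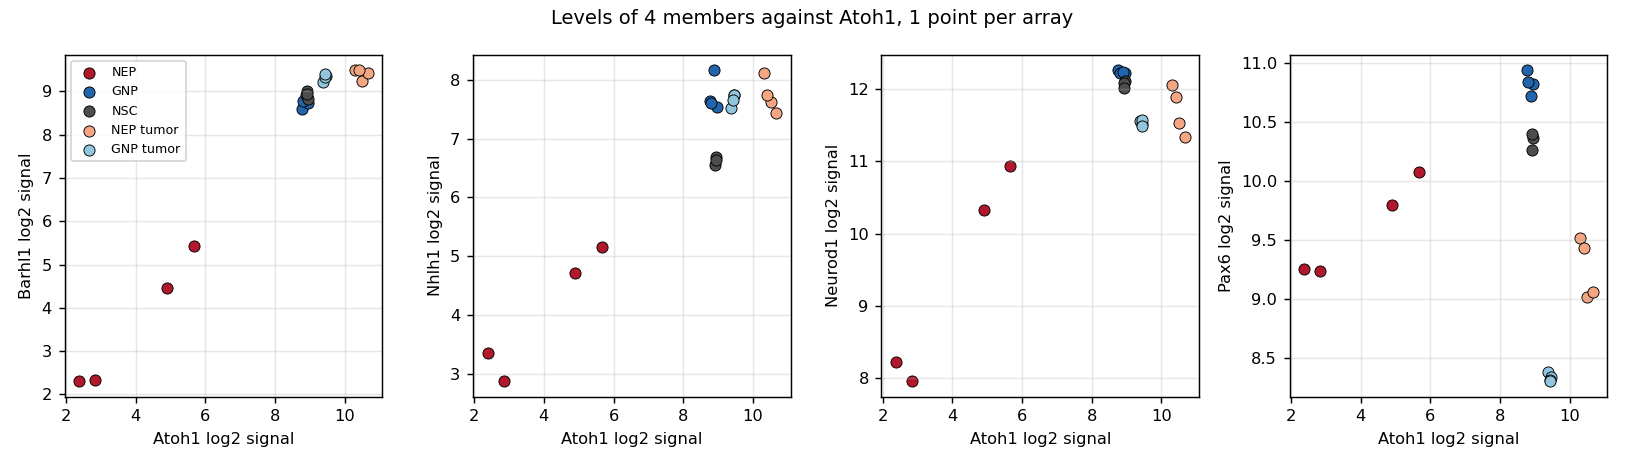
Log2 signal of Barhl1, Nhlh1, Neurod1 and Pax6 against that of Atoh1, 1 point per array, coloured by group. NEP arrays lie apart at the left, and Pax6 falls from GNP and NSC to the tumors while Atoh1 does not.

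Close relatives of the members were on the array as well. Barhl2 fell in NEP against GNP (-4.08, adjusted p = 4.02e-06) and stood at 7.66 to 7.72 in the 4 other groups. Nhlh2 (-1.09), Neurod2 (-1.72), Nfic (-1.23) and Zic5 (-0.69) fell too, whereas Zic4 (-0.06), Nfib (-0.18) and Nfix (-0.08) were not called. Of the 4 tested Zic genes 2 fell, Zic2 (lost in the fit of NEP and GNP alone) and Zic5, and of the 4 Nuclear Factor I genes 1 fell, Nfic, where 39.9% of all genes did. Between the tumors 0 of the 4 Zic genes were called, where 23.6% of all genes were, and Nfic was lower in NEP tumors (-0.49, adjusted p = 0.0192). Neurod2 was low in the tumors. It stood at 3.80 ± 0.15 in NEP tumors and 3.43 ± 0.11 in GNP tumors against 6.81 ± 0.25 in GNP, and its difference between GNP tumors and GNP was -3.38 (adjusted p = 1.62e-07). Meis2 lay near or under the array median in all groups and was not tested.

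Among 19 tested genes of the rhombic lip and the granule progenitor outside the members, 14 fell and 2 rose in NEP against GNP, where 39.9% of all genes fell and 29.6% rose, with a median of -1.19 against -0.11 for all genes. Uncx (-5.41), a homeobox gene, Mab21l1 (-4.75) and Sfrp1 (-4.41), a secreted Wnt antagonist, had the widest differences beside Barhl2. In the tumors 5 of these 19 were higher and 1 lower in the NEP lineage, where 15.5% and 8.1% of all genes were. The lower one was Olig3, a rhombic lip bHLH gene, at 7.20 ± 0.28 in NEP tumors and 8.51 ± 0.082 in GNP tumors (-1.31, adjusted p = 0.00644). Of 18 granule neuron differentiation genes, 13 fell and 0 rose in NEP (39.9% and 29.6% of all genes), led by Cbln1 (-5.24), Cntn2 (-5.01), Stmn2 (-4.51) and Tubb3 (-3.49), with a median of -1.31. In the tumors 2 of the 18 were higher, Cbln3 and Gabra6, and 1 lower, a smaller share than the 23.6% called among all genes.

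Of 13 bHLH partners and inhibitors, 6 rose and 4 fell in NEP against GNP, where 29.6% of all genes rose and 39.9% fell, so the share called was near that of all genes (69.5%). The 4 widest were all higher in NEP, Id4 by 7.20, Id3 by 7.10, Hes5 by 5.37 and Hes1 by 3.36, which encode inhibitors of bHLH activators and are also glial genes. In the tumors 5 were higher in the NEP lineage and 0 lower (15.5% and 8.1% of all genes), with Hes1 1.38 and Id1 0.83 higher (adjusted p = 0.000203 and 0.0154). Of 12 tested genes known to be bound or regulated by Atoh1, 9 fell and 2 rose in NEP (39.9% and 29.6% of all genes), with a median of -1.13. The lists overlap, so their counts are not separate. Gli2, Barhl2, Nhlh2, Insm1 and Lhx2 are also in the rhombic lip list, and Hes6, Cbfa2t2 and Cbfa2t3 in the bHLH list. Hey1 is in both of those, Zic4 and Zic5 are in the rhombic lip list, and Nfib, Nfix and Nfic in the differentiation list. Dll1, a Notch ligand, was higher by 5.57, and Barhl2, Lhx2 (-2.73) and Rab15 (-2.65) were lower. The tumor difference was called higher for 4 of these 12 and lower for 1 (15.5% and 8.1% of all genes), with Dll3 at 0.86 and Rab15 at 0.86. Of 6 tested TALE partners of Meis1, 3 rose and 2 fell in NEP (29.6% and 39.9% of all genes), and Pknox2 was 2.10 higher. Between the tumors 1 of the 6 was called, Pbx4 (0.37), where 23.6% of all genes were. Of 3 tested unipolar brush cell genes, Otx2 (-2.70) and Eomes (-1.49) fell and Calb2 (2.29) rose, where 69.5% of all genes were called, and 0 of the 3 were called between the tumors. The part that glial, microglial and stromal RNA on the NEP arrays has in these list values was not tested.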

How the data were processed

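Total RNA, extracted with Trizol, was amplified from 100 ng with the Ambion WT Expression Kit and hybridised to 19 arrays, per the labels' protocols. The authors deposited log2 probe set signals made with RMA in Affymetrix Expression Console; the submitters' processing notes name the tool without a version. The log base was read from the range of the values, and a per-array centring (equal array means) is not given in the sources used here. Of 45101 probe sets, 34945 carried 1 gene symbol in the platform annotation and gave 18193 genes. Genes whose brightest probe set reached the array median on at least 3 arrays (12148) entered a linear model in limma 3.58.1 under R 4.3.3 (lmFit, eBayes, 5 group means, two-sided), with Benjamini-Hochberg adjustment over all of them and calls at an adjusted p under 0.05. Differences are log2, first group minus second, in 11 comparisons. The fit was tested on simulated data. The number of arrays limits the precision. The members and the 8 lists of other genes were chosen with earlier results of these data known. Outside the members, named genes were the 6 most and 4 least like Atoh1, up to 4 per list with the largest difference in NEP against GNP or between tumors, and the paralogs. Alternatives were other probe sets, normalization, filters, variance models, arrays left out and a replicate block.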

Additional observations from a re-analysis of the deposited data

Results flagged for a closer look

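In 6 of the 9 factors the difference between the lineages was not the same in tumors and in progenitors. This is the interaction in the fit of all 19 arrays, which was called for 61.9% of all genes, so the share among the factors is near that of all genes. For Barhl1, Nhlh1, Neurod1 and Meis1 it is mostly NEP minus GNP with the sign turned. The values were 5.95 for Atoh1, 5.20 for Barhl1, 3.77 for Nhlh1, 3.05 for Neurod1, 2.16 for Pax6 and 0.57 for Meis1 (limma adjusted p = 1.41e-06, 5.91e-06, 7.21e-06, 0.000738, 3.7e-07 and 0.0116).

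One GNP tumor array stood away from the other 3 of its group in Zic2, at 9.54 against 9.31 to 9.35. In Meis1 another GNP tumor array was at 8.94 against 8.80 to 8.82. These are 2 of 36 groups of 4 arrays examined, and chance flags about 1 in 20 such groups.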

How the results depend on the processing

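Of 1808 recomputed member differences, 1579 kept direction and side of the threshold, 93 lost a call, 75 gained one and 61 changed direction. A call stood on at least 1 side in 18 of the 61 and on both sides in 3. The 18 came from other probe sets of Meis1, Pax6 or Nfia, or from averaging the Meis1 probe sets. For the second Meis1 probe set they were -1.44 in NEP minus NSC, -0.56 in GNP minus NSC, -0.95 in NEP tumor minus GNP tumor, -0.65 in NEP tumor minus NEP, -2.09 and -1.13 in NEP tumor and GNP tumor minus NSC, and -0.073 in the interaction. For the mean of Meis1 probe sets they were -0.45 in NEP minus NSC, -0.053 in NEP tumor minus NEP, and -0.50 and -0.16 in NEP tumor and GNP tumor minus NSC. Dim Pax6 probe sets gave -0.00021 in GNP minus NSC, 0.38 in NEP tumor minus NEP, 0.068 in NEP tumor minus GNP and 0.068 in NEP tumor minus NSC. Other Nfia probe sets gave 0.63 in GNP minus NSC, -0.29 in GNP tumor minus GNP and -0.29 in GNP tumor minus NSC.

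The other 43 were called on neither side. From other probe sets, Pax6 in NEP tumor minus NEP was 0.32 with the second brightest and 0.25 with a dim one, Zic1 was 0.25 in GNP minus NSC, and Nfia was 0.016, 0.20 and 0.12 in GNP minus NSC, -0.15 in GNP tumor minus GNP and -0.14 in GNP tumor minus NSC. Averaged probe sets gave 0.088 for Zic1 in GNP minus NSC, -0.34 for Meis1 in NEP tumor minus GNP tumor and 0.086 for Pax6 in NEP tumor minus NEP. The second quantile normalization gave 0.029 for Nfia in NEP minus GNP, -0.048 for Zic1 and -0.040 for Meis1 in NEP tumor minus GNP tumor, -0.0073 for Zic2 in NEP tumor minus NEP and -0.0036 for Zic1 in the interaction. NEP arrays 3 and 4 only gave 0.049 for Nfia in NEP minus GNP, and -0.33 and -0.28 for Zic2 in NEP tumor and GNP tumor minus NEP. NEP arrays 1 and 2 only gave -0.16 for Meis1 in NEP minus NSC and 0.0096 for Pax6 in NEP tumor minus NEP. NEP tumor arrays 1 and 2 only gave -0.051 for Zic1, -0.14 for Nhlh1 and -0.098 for Neurod1 in NEP tumor minus GNP tumor, and -0.056 for Zic2 in NEP tumor minus NEP. NEP tumor arrays 3 and 4 only gave 0.088 for Zic2 and -0.056 for Meis1 in NEP tumor minus GNP tumor, and 0.19 for Nhlh1 in NEP tumor minus GNP. Leaving out 1 array, the differences whose direction changed ranged in NEP tumor minus GNP tumor from -0.031 to 0.056 for Zic1, -0.10 to 0.014 for Zic2, -0.054 to 0.062 for Meis1 and -0.068 to 0.16 for Nhlh1. They ranged from -0.0085 to 0.21 for Meis1 in NEP minus NSC, -0.11 to 0.23 for Zic2 in NEP tumor minus NEP and -0.055 to 0.28 in GNP tumor minus NEP. Nhlh1 ranged from -0.14 to 0.071 in GNP tumor minus GNP and -0.14 to 0.13 in NEP tumor minus GNP, and Nfia from -0.021 to 0.018 in GNP tumor minus NSC. The cause of these changes was not tested.

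Counts of members called moved by over 1.5 times in these cases. NEP tumor against GNP tumor went from 1 to 2 when a gene's probe sets were averaged and in the fit of only the groups compared. GNP tumor against GNP went from 1 to 6 in the fit of only the groups compared, 3 with a second quantile normalization, and 2 with a variance trend or a filter at the 75th percentile. GNP tumor against NSC went from 4 to 7 in the fit of only the groups compared. NEP tumor against NSC went from 5 to 3 with NEP tumor arrays 1 and 2 only or 3 and 4 only, alternatives chosen after seeing the data. Leaving out 1 array gave 1 to 2 calls in GNP against NSC (3 in full), 1 to 2 in GNP tumor against GNP (1), 3 to 5 in NEP tumor against NSC (5) and 2 to 4 in GNP tumor against NSC (4). Deviations of same-numbered arrays correlated at -0.16 to 0.07 for NEP and GNP, -0.04 to 0.05 for the tumors, -0.02 to 0.12 for GNP and GNP tumor, -0.18 to -0.07 for NEP and NEP tumor, -0.03 to 0.06 for NEP and GNP tumor, and -0.05 to 0.29 for GNP and NEP tumor, where 2 of 4 pairs were over 0.1 and 3 of 4 arrays matched their own number best. In none of these were all 4 over 0.1, so the numbers were not taken as pairs. With the number as a replicate block in a fit of only the groups compared, 2 members were called in NEP tumor against GNP tumor and 5 in GNP tumor against GNP. The share of all genes called with the block is not given here. Without the block it was 30.8% and 59.1% in these comparisons.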

Other observations

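Among the lists described above, some lineage genes stood far apart between GNP tumors and GNP, a comparison across the runs. It called 49.8% of all genes in either direction. Olig3, a bHLH gene of the early rhombic lip, stood at 3.66 ± 0.96 in GNP and 8.51 ± 0.082 in GNP tumors, a difference of 4.85, and Lhx2, a LIM homeobox gene, at 4.62 ± 0.20 and 7.65 ± 0.031, a difference of 3.02. Unc5c, a netrin receptor of migrating granule cells, went the other way, from 9.04 ± 0.017 in GNP to 2.68 ± 0.25 in GNP tumors (-6.37). Eomes, a T-box gene of unipolar brush cells, stood at 6.20 ± 0.31 in GNP and 3.18 ± 0.24 in GNP tumors (-3.02). Run and group cannot be told apart for these values.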
